A study of Homo sapiens with 8 samples.

Results

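Genes of the acinar lineage and of its tip progenitors were followed through the H3K27ac peak lists of human pancreatic progenitors (PPs): the transcription factor genes NR5A2, PTF1A, RBPJL and BHLHA15 and the digestive enzyme genes CPA1 and CEL. These 6 genes, of 20033 protein-coding genes in the annotation, were chosen by name, and every peak was taken from the gene body to 50 kb beyond each end, with genes that had no peak kept. H3K27ac is an acetyl mark on a lysine of histone H3 found at active promoters and enhancers. ChIP-seq (chromatin immunoprecipitation with sequencing) for it was done on PPs made from MEL1, a human embryonic stem cell line, in EF6 medium (B27, EGF, bFGF and the TGFβ inhibitor 616452), which both groups shared. The 2 DMSO libraries came from PPs given the solvent, and the 2 I-BET151 libraries from PPs given 1 μM I-BET151, a BET bromodomain inhibitor, for 7 days. All libraries came from 1 cell line, named MEL1 INS GFP/W in the study's methods (a GFP reporter at the insulin gene), and nothing in the labels says that replicates were separate differentiations.

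In the developing pancreas, the epithelium forms tips, which keep multipotent progenitors at first and later become acini, and a trunk, which gives ducts and endocrine cells. PTF1A is a basic helix-loop-helix factor that pairs with an E-protein and with RBPJ in tip progenitors, and with RBPJL, an acinar relative of RBPJ, in mature acinar cells. NR5A2 is an orphan nuclear receptor that acts with this complex on digestive enzyme genes, and BHLHA15 (MIST1) organises the secretory machinery of acinar cells. CPA1 encodes a carboxypeptidase that marks tip progenitors before it becomes an acinar product. CEL encodes the bile salt-dependent lipase of pancreatic juice.

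H3K27ac was found at 2 of the 6 genes. At NR5A2 there were 4 peaks in each of the 4 libraries, and CPA1 had 2 in DMSO replicate 1 and 3 in each of the other libraries. PTF1A had 0 peaks in its window in any library. The windows of RBPJL, BHLHA15 and CEL held peaks, but all of them were nearest to the start of another gene. A peak lay within 1 kb of an annotated start in 4 of 4 libraries for NR5A2 and CPA1 and in 0 of 4 for PTF1A, RBPJL, BHLHA15 and CEL, whereas 46.0% of all protein-coding genes had one in all 4 libraries. In the wider window, 5 of the 6 genes had a peak, against 75.8% of all protein-coding genes.

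The libraries had 7.76 to 9.84 M ChIP reads (M, the SI prefix mega), worked out from the lists, and 12312 to 14248 peaks each, with the longer lists in DMSO. The weakest called peak had 1.73 to 2.19 reads per M ChIP reads at its summit, and the 5th percentile of the lists was 6.10 to 8.46. Calling depends on the local background, so the weakest peak does not give the limit at a particular gene. A gene without a peak had acetylation below the calling threshold, which is not the same as none. Of 12 PP marker genes, 10 had a promoter peak in all 4 libraries, against 1 of 5 pluripotency, 1 of 4 hepatic, 1 of 4 intestinal and 0 of 8 endocrine markers. The intestinal genes VIL1 and LGALS4 had one in 3 libraries, both DMSO libraries among them. Covered length in both I-BET151 libraries was lower for 3 of the 4 intestinal markers and for the hepatic APOA1. It was higher for 7 and lower for 0 of the 11 PP markers with a peak. Of the 2 endocrine markers with a peak in the window, INS was higher and SST lower, both without a promoter peak. Covered length counts every peak in a gene's window, also those nearest to another gene's start. Over all 15190 protein-coding genes with a peak, 12.5% were higher and 44.4% lower. Of 11 acinar markers, CPA1 alone had a promoter peak. The part of other cells in any result below was not tested, and in bulk chromatin a change in the share of marked cells and a change in acetylation per cell cannot be told apart.

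NR5A2 (ENSG00000116833.14, chr1:200027614-200177420 in hg38, plus strand) spans 149807 bp, and no other protein-coding gene starts in its window. Its 4 peaks merged across libraries into 4 regions, each called in all 4 libraries, and are named here by the distance of the strongest summit from the MANE Select start. The region at +1.49 kb (chr1:200028944-200029482) had its summit in a coding exon. The regions at +11.7 kb (chr1:200038705-200040125) and +13.1 kb (chr1:200040559-200041701) lay in an intron. Their summits were at −3428 and −2011 bp from an alternative start of the gene at position 200042825. The region at +15.1 kb (chr1:200042449-200043092) lay over that alternative start.

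The MANE Select start itself carried no peak: the nearest peak edge was 1.23 to 1.26 kb downstream of it in the 4 libraries. The second promoter that RefSeq gives, with its start at position 200042591, was covered over 140 and 176 of its 300 bp in the DMSO libraries and over 192 and 128 in the I-BET151 libraries. The bases before both starts are shown because one promoter was marked and the other was not, and the summits at +11.7 and +13.1 kb because they had the most reads and the strongest change. Capitals mark the letters CAGCTG and CACCTG (E-boxes, the sites of basic helix-loop-helix factors), GATAA (GATA factors) and TGTTTAC (FOXA), on either strand. Promoter sequences are from RefSeq (GRCh38.p14) and equal hg38, and summit windows are from hg38.
NR5A2 bases before the MANE Select start, chr1:200027460-200027643: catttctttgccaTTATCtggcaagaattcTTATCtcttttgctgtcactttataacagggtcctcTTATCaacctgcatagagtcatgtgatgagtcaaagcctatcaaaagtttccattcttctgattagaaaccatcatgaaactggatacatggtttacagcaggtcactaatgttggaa
NR5A2 bases before the second RefSeq start, chr1:200042341-200042590: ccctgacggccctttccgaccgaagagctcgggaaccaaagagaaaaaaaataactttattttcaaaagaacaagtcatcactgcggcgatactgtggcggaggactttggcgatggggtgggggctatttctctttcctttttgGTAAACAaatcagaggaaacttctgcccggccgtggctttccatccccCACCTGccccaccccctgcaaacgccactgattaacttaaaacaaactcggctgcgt
NR5A2 summit at +11.7 kb, chr1:200039248-200039547: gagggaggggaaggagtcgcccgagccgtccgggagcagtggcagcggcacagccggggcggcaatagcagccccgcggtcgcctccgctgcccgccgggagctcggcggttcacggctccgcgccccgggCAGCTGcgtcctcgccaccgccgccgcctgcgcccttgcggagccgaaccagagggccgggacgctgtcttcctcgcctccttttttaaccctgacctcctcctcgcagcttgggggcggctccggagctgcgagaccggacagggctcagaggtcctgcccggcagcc
NR5A2 summit at +13.1 kb, chr1:200040665-200040964: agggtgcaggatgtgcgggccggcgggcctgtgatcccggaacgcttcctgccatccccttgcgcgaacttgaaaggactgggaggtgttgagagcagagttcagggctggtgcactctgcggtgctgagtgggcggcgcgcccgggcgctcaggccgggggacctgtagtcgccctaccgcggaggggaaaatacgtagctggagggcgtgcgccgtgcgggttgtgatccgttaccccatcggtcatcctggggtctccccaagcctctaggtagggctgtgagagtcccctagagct

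The unmarked NR5A2 promoter was poor in GC, at 36.7% of its 300 bp, and had GATAA 3 times on the minus strand. The second promoter had 52.7% GC, 1 CACCTG and 1 TGTTTAC on the minus strand. The summit window at +11.7 kb had 74.3% GC and 1 CAGCTG, and that at +13.1 kb had 66.0% GC and none of the 7 letter strings searched, which besides these 4 were CATATG, the TC-box TGGGAA, read by RBPJ and RBPJL, and CAAGGTC, a sequence that NR5A2 binds. Among windows of the same length, GATAA was present in 18.6% of all RefSeq promoters, TGTTTAC in 2.85%, CACCTG in 19.9% and CAGCTG in 18.0%, and CAGCTG in 20.8% of the summit windows of all 15752 regions. A match is a string of letters, not a bound site.

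All 4 NR5A2 regions were higher with I-BET151 by reads, 2 of them also by fold enrichment, with the groups overlapping by fold at the others. Height is given in rpm, the ChIP reads at the summit per M ChIP reads, with n = 2 libraries a group, and a region is called higher where both I-BET151 libraries were above both DMSO libraries. Over the 10302 regions called in all 4 libraries with every summit resolved, 29.8% were higher and 31.3% lower by this rule, and the median log2 change was 0.00086. Among the 147 genes with at least 4 such regions, every region was higher in 11.6%. The regions of a gene share its chromatin and are not independent.

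**Figure D1:**
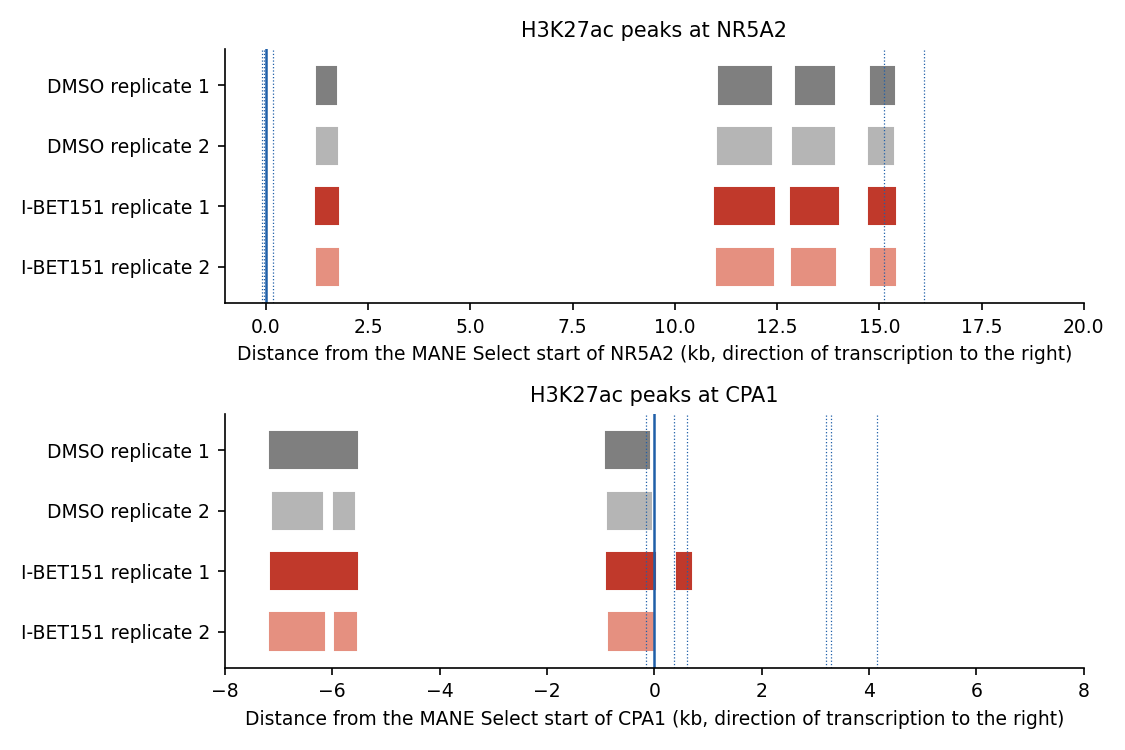
Extent of each H3K27ac peak at NR5A2 (top) and CPA1 (bottom) in the 4 libraries, against the distance from the MANE Select start in kb; the solid blue line is that start and dotted lines are the other annotated starts. The 4 NR5A2 peaks recur in every library and leave the MANE Select start bare, whereas at CPA1 the peak at +0.59 kb is present in 1 I-BET151 library.

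Of the 6 shared regions of NR5A2 and CPA1, the largest change was at NR5A2 +13.1 kb, in an intron but less than 3 kb from the alternative start. It held 24.7 and 22.0 rpm in DMSO replicates 1 and 2, and 42.5 and 44.0 in I-BET151 replicates 1 and 2. The I-BET151 mean of 43.3 ± 1.06 (SD) was 1.85 times the DMSO mean of 23.3 ± 1.97, a log2 change of 0.89. This placed it at the 99.3rd percentile of those regions. The 95% Poisson intervals of the libraries, which cover counting error only, ended at 28.5 in DMSO and began at 38.1 in I-BET151. The exact permutation test (two-sided) gave p = 0.333, the smallest p that 2 against 2 libraries allow, as it did for every other value here whose groups did not overlap. The DMSO peaks were 947 and 1013 bp wide and the I-BET151 peaks 1143 and 1049 bp.

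The +11.7 kb region was the tallest at NR5A2, with 38.2 and 37.2 rpm in DMSO and 52.6 and 54.4 in I-BET151. Both I-BET151 libraries thus lay well above the DMSO pair, at 1.42 times its mean (log2 change 0.50). The +15.1 kb region at the alternative start held 30.1 and 26.0 rpm in DMSO and 38.3 and 37.0 in I-BET151, 1.34 times as much (log2 change 0.42). The +1.49 kb region nearest to the MANE Select start changed least by rpm, from 21.4 and 21.5 to 24.8 and 26.4, a log2 change of 0.25. Counting intervals of DMSO and I-BET151 libraries overlapped here, from 18.3 to 24.8 in DMSO and from 21.4 to 30.2 in I-BET151, and also at +15.1 kb, where they ended at 34.2 in DMSO and began at 32.9 in I-BET151.

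At NR5A2 the DMSO peaks covered 3239 and 3380 bp, against 3747 and 3509 bp for I-BET151. NR5A2 was the 1 gene of the 6 with more covered length in both I-BET151 libraries, at 3.63 ± 0.17 kb against 3.31 ± 0.10 kb (9.62% more; exact permutation p = 0.333; 0.319 kb more, or 0.20 kb without I-BET151 replicate 1), where 12.5% of the 15190 protein-coding genes with a peak did so and 44.4% had less in both.

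**Figure D2:**
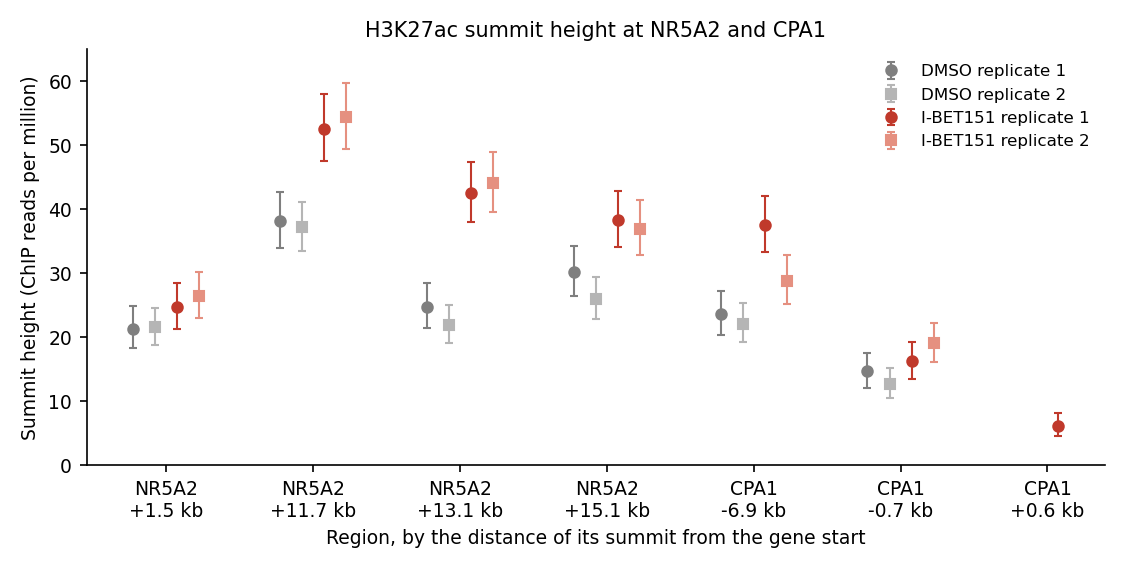
Summit height in rpm for the 7 regions at NR5A2 and CPA1, named by distance from the gene start; points are single libraries and bars are 95% Poisson intervals. At the 6 regions called in all libraries both I-BET151 points lie above both DMSO points, with the widest gap at NR5A2 +13.1 kb; by fold, CPA1 −0.67 kb was lower instead.

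CPA1 (ENSG00000091704.10, chr7:130380339-130388114, plus strand) was the only enzyme gene of the 6 with peaks of its own. Its region at −6.89 kb was intergenic. Its region at −0.67 kb (chr7:130379590-130380506) ended near the MANE Select start at position 130380494: the peak edge lay 0.095 and 0.062 kb before it in DMSO, over it in I-BET151 replicate 1 and 0.017 kb before it in I-BET151 replicate 2. A small region at +0.59 kb (chr7:130380912-130381184), in an intron, was called in I-BET151 replicate 1 alone. The starts of CEP41 and CPA5 also lie in the window, but no peak there was nearest to them. The summit at −0.67 kb is shown as the promoter peak, with the bases before the start that were covered by peaks in all 4 libraries; capitals mark the same letters as above and TGGGAA.
CPA1 summit at −0.67 kb, chr7:130379679-130379978: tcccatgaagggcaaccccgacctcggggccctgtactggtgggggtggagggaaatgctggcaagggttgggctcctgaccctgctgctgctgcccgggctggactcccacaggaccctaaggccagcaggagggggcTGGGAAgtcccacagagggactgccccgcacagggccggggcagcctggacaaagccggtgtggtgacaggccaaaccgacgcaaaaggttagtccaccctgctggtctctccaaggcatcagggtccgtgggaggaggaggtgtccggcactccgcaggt
CPA1 bases before the start, chr7:130380244-130380368: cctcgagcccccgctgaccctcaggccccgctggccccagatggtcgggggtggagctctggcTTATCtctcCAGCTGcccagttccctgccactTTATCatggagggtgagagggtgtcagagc

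The 125 bp shown from before the CPA1 start hold 1 CAGCTG between 2 minus-strand matches to GATAA. The −0.67 kb window has 1 TGGGAA, which 20.0% of the summit windows of all regions hold. The summit window of the +0.59 kb region had 4 CACCTG and 1 CAGCTG, where 27.1% of all regions had at least 1 CACCTG.

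The −6.89 kb region of CPA1, away from the gene, held 23.6 and 22.2 rpm in DMSO and 37.5 and 28.9 in I-BET151, so both I-BET151 libraries were above both DMSO libraries, although they differed from each other by more than the DMSO pair did. The ratio of the means was 1.45 (log2 change 0.54; 33.2 ± 6.12 against 22.9 ± 1.03, n = 2 each). It was called as 1 peak in DMSO replicate 1 and I-BET151 replicate 1 and as 2 peaks in the others. Without I-BET151 replicate 1, the log2 change was 0.33. The counting intervals of the groups overlapped, ending at 27.2 in DMSO and beginning at 25.3 in I-BET151.

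The −0.67 kb region at the CPA1 promoter had fewer reads, at 14.7 and 12.7 rpm in DMSO and 16.2 and 19.0 in I-BET151 (log2 change 0.36), and its direction differed between scales. The counting intervals overlapped here too, to 17.6 in DMSO and from 13.5 in I-BET151. Its deposited fold enrichment, ChIP over local background, was 9.14 and 9.53 in DMSO and 5.59 and 5.75 in I-BET151, lower in both (log2 change −0.72). The local input level behind it was 4 and 2.96 reads in DMSO and 8 and 8 in I-BET151. Input was itself raised at peaks: by library, its median at shared summits was 41.5 to 49.0 times the genome-wide level. The +0.59 kb peak had 48 reads at its summit, 6.19 rpm, with rank 11050 of the 12887 peaks of its list. No peak was called there in the other 3 libraries.

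**Figure D3:**
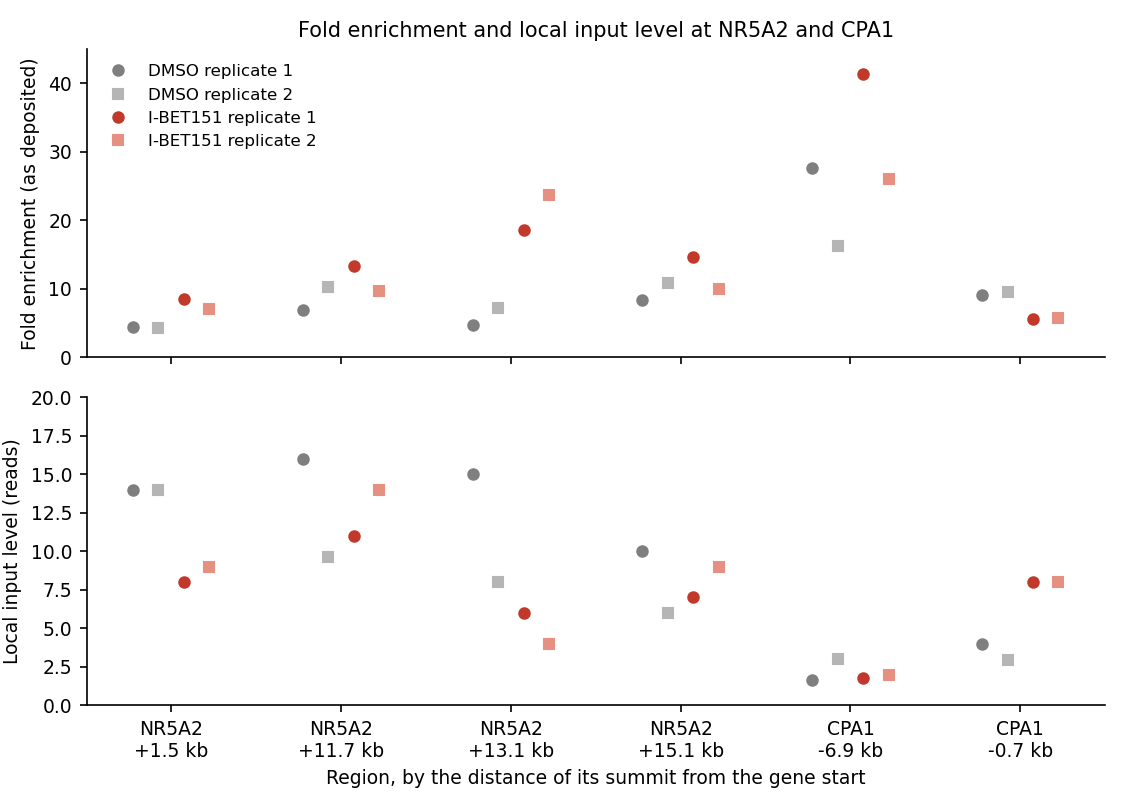
Deposited fold enrichment (top) and the local input level worked out from it (bottom, reads) at the 6 regions of NR5A2 and CPA1 called in all libraries; each point is a library. At NR5A2 +13.1 kb the input level was lowest in I-BET151 and the fold highest, and at CPA1 −0.67 kb the reverse held.

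The input level also moved with the fold at NR5A2. At +13.1 kb the fold was 4.76 and 7.17 in DMSO and 18.6 and 23.7 in I-BET151, a log2 change of 1.82 against 0.89 for rpm, and the input level was 15 and 8 against 6 and 4 reads. At +1.49 kb the fold was 4.40 and 4.22 against 8.46 and 7.13 (log2 change 0.86), and the input level 14 and 14 against 8 and 9. At +11.7 and +15.1 kb, with log2 changes of fold of 0.43 and 0.35, and at CPA1 −6.89 kb the fold values of the groups overlapped. Of the 6 regions, fold thus put 2 higher, 1 lower and 3 overlapping, where rpm put 6 higher. Over all regions called in all 4 libraries, fold put 25.4% higher and 16.3% lower. The part of the input in these folds was not tested beyond these values.

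At CPA1 the DMSO peaks covered 2424 and 2109 bp, against 2773 and 2233 bp for I-BET151. The groups overlapped (2.27 ± 0.22 against 2.50 ± 0.38 kb; exact permutation p = 0.667). By rpm, 16.6% of the 1320 genes with at least 2 regions called in all libraries had every one higher, as CPA1 had, though not by fold.

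PTF1A (ENSG00000168267.7, chr10:23192312-23194245) had 0 peaks in its window. A peak was called in the window of 75.8% of all protein-coding genes, so PTF1A was not alone in having none. No other protein-coding gene starts in the PTF1A window. The stretch downstream where a distal enhancer of PTF1A is known to act in pancreatic progenitors is part of this window. The nearest peak in each library was at the start of MSRB2, with its edge 96.05 to 96.06 kb from the PTF1A start.

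RBPJL (ENSG00000124232.11, chr20:45306840-45317824) had no peak closer to its MANE Select start than 35.3 kb in any library. BHLHA15 (ENSG00000180535.4, chr7:98211439-98215457) had its nearest peak at 6.56 to 6.61 kb, but that peak lay in TECPR1, at an annotated start of that gene. CEL (ENSG00000170835.17, chr9:133061981-133071861) had its nearest peak 30.8 kb away, at the start of GTF3C5. CEL is followed by a near-identical pseudogene, CELP, and reads shared between them could not be told apart in the lists. The bases before the starts of RBPJL and CEL, which had 0 bp covered in all 4 libraries, are shown for comparison with CPA1, with CAAGGTC also in capitals.
RBPJL bases before the start, chr20:45306590-45306839: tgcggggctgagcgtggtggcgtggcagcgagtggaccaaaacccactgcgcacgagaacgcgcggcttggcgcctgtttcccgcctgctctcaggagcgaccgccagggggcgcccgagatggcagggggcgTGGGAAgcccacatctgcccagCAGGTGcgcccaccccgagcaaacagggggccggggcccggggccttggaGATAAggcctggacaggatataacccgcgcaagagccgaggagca
CEL bases before the start, chr9:133061731-133061980: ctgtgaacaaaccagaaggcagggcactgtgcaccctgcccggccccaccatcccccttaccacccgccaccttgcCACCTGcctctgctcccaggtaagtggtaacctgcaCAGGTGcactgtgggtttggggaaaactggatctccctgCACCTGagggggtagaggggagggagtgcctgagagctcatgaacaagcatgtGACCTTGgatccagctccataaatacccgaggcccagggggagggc

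Of the strings searched, RBPJL has 1 TGGGAA, 1 CACCTG on the minus strand and 1 GATAA, which 22.7%, 19.9% and 18.6% of all RefSeq promoters hold. CEL has 3 CACCTG and 1 CAAGGTC on the minus strand, a string that 2.91% of RefSeq promoters hold. The BHLHA15 promoter, with 79.3% GC, has 2 CACCTG. RefSeq promoter sequences were matched for 5 of the 6 genes, PTF1A being the exception.

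The 8 regions in the windows of RBPJL, BHLHA15 and CEL belonged to SDC4, SYS1, TECPR1, GTF3C5 and RALGDS by the start nearest to the strongest summit. All 8 were called in all 4 libraries. In the TECPR1 region 40.6 kb from the BHLHA15 start, 1 peak of I-BET151 replicate 2 was nearest to BRI3, 104 bp from its start. Regions at the same gene are not independent. By fold, 0 of the 8 regions were higher in I-BET151, 4 were lower and 4 overlapped (25.4% higher and 16.3% lower over all shared regions). By rpm, 1 of the 8 was higher, 6 were lower and 1 overlapped, where 29.8% of the 10302 regions were higher and 31.3% lower. The higher one, in an intron of SDC4 35.6 kb from the RBPJL start, held 19.3 and 17.4 rpm in DMSO and 26.3 and 21.0 in I-BET151 (log2 change 0.37, or 0.20 without I-BET151 replicate 1), whereas by fold its groups overlapped with a log2 change of −0.21. By rpm, the most negative change of the 8 was at the start of TECPR1 40.6 kb from the BHLHA15 start, which held 25.1 and 23.5 in DMSO and 13.3 and 17.8 in I-BET151 (log2 change −0.65, and −0.67 by fold). In the CEL window, 2 regions at the start of GTF3C5 were lower, at log2 changes of −0.46 and −0.15. By fold the first was at −1.13, the lowest of the 8, and the second at 0.08, with overlapping groups. Without DMSO replicate 1 the second was at −0.041 by rpm.

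**Figure D4:**
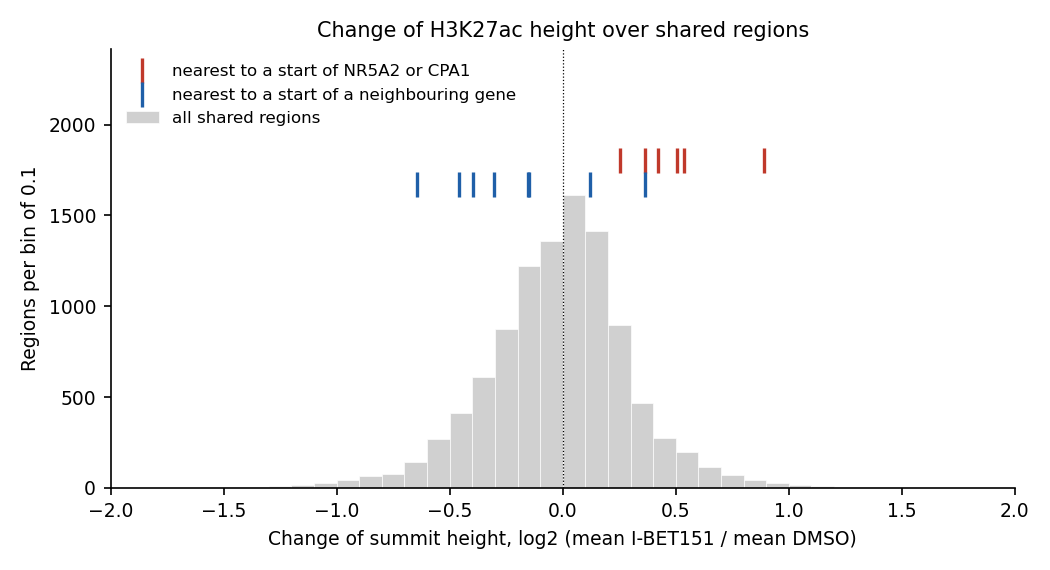
Change of summit height, log2 of the I-BET151 mean over the DMSO mean, for all regions called in all 4 libraries (grey bars, regions per bin of 0.1; 1 region lies outside the axis), with ticks for the regions at NR5A2 and CPA1 (red) and for neighbours' regions in the other windows (blue). All 6 red ticks lie above 0, from 0.25 to 0.89 (by fold, 1 of them, CPA1 −0.67 kb, was below 0). Of the 8 blue ticks, 6 lie below 0 (by fold, the groups were lower at 4 of the 8 and overlapped at 4).

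Height changes were read against where a region lay. Of the 1195 such regions with a summit more than 3 kb from any start, as at NR5A2 +11.7 kb and CPA1 −6.89 kb, 41.8% were higher with I-BET151. Of the 9107 within 3 kb of a start, as at NR5A2 +13.1 kb, 28.2% were higher.

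No region in the 6 windows was gained or lost. Of the 15 regions, 14 were called in all 4 libraries and 1 in a single library, so 0 were called in both libraries of a group and neither of the other, where 2.81% of all regions were gained and 8.60% were lost. The 6 regions of NR5A2 and CPA1 that were higher by rpm with I-BET151 were all called in both DMSO libraries.

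In covered length, the groups overlapped in the windows of RBPJL, BHLHA15 and CEL. RBPJL had 1742 and 1822 bp in the DMSO libraries, against 1869 and 1701 bp with I-BET151. BHLHA15 had 711 and 1083 bp, against 531 and 822 bp, a mean of 0.897 against 0.676 kb (a change of −24.6%; exact permutation p = 0.667). CEL had 1440 and 1411 bp against 1376 and 1474 bp. The mean over the 6 genes was 0.056 kb higher in I-BET151 (exact permutation p = 0.667), from 0.00975 kb without I-BET151 replicate 1 to 0.103 kb without I-BET151 replicate 2, and with only the peaks nearest to a gene's own start 0.093 kb higher.

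**Figure D5:**
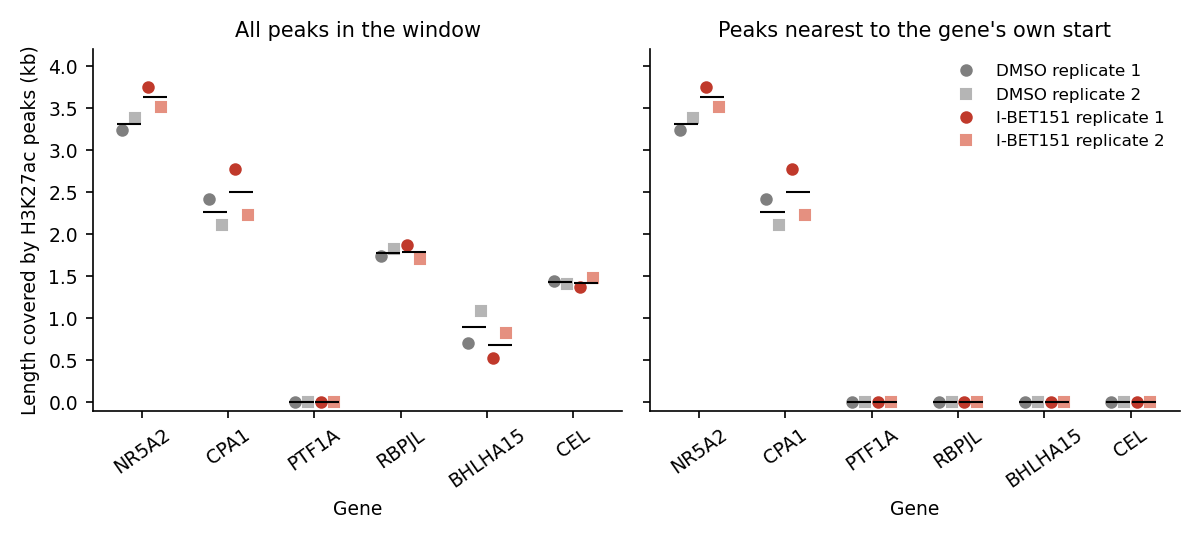
Length covered by H3K27ac peaks in kb per gene and library, for all peaks in the windows (left) and for peaks nearest to the gene's own start (right); black bars are group means. NR5A2 and CPA1 keep their length on the right, whereas RBPJL, BHLHA15 and CEL fall to 0 and PTF1A is at 0 on both.

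Promoter peaks were also rare in the wider acinar set. Of 28 genes for acinar secretory products, 0 had a promoter peak in all 4 libraries, against 46.0% of all protein-coding genes, and 27 had none in any. The exception, named after its values were seen, was PNLIPRP2, a lipase-related protein, with a promoter peak in both DMSO libraries and neither I-BET151 library (632 and 696 bp of its window against 320 and 0 bp). In the windows of the 15 secretory genes with a peak, 2 had more covered length in both I-BET151 libraries, 9 had less and 4 overlapped, where 12.5% of all genes with a peak had more and 44.4% less, and the median change was −0.20 kb against −0.094 kb over all genes with a peak. Neighbours in this list are not independent, since CELA2A and CTRC had the same values in every library. Covered length, here and in the lists below, counts every peak in a window, also those nearest to another gene's start. Peaks of neighbouring genes were not set apart, so the lengths are of windows and not of the genes alone. The longest were at the chymotrypsinogen genes CTRB1 and CTRB2, neighbours that share peaks, where CTRB1 had 7.08 ± 0.68 kb (DMSO) and 5.73 ± 0.25 kb (I-BET151) and CTRB2 5.13 ± 0.08 and 4.22 ± 0.17 kb, with no overlap of the groups and no promoter peak. The phospholipase gene PLA2G1B had 3.19 ± 0.53 kb (DMSO) and 3.90 ± 0.02 kb (I-BET151). CTRL, which encodes a chymotrypsin-like protease, had 3294 and 2610 bp under DMSO and 2218 and 2173 bp under I-BET151.

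The partners of PTF1A and other regulators of acinar fate were marked throughout, with a promoter peak in all 4 libraries for 18 of 18 genes, against 46.0% of all protein-coding genes. Of these, 7 had more covered length in both I-BET151 libraries, 3 had less and 8 overlapped (12.5% more and 44.4% less over all genes with a peak), with a median change of 0.08 kb against −0.094 kb. GATA4, a zinc finger factor needed for pancreas formation, had a covered length of 6.84 ± 0.07 kb (DMSO) and 7.99 ± 0.20 kb (I-BET151), and FOXA2, a forkhead factor of endoderm, 6.02 ± 0.54 and 7.13 ± 0.01 kb, with no overlap of the groups. TCF3, which encodes the E-proteins that pair with PTF1A, had 7.54 ± 0.08 kb (DMSO) and 6.58 ± 0.01 kb (I-BET151). GATA6, a close relative of GATA4, had 6.50 ± 0.07 and 6.52 ± 0.09 kb. Among 14 genes of the trunk and ducts, 10 had a promoter peak in all 4 libraries. Of the 12 with a peak in the window, 4 had more covered length, 2 less and 6 overlapped, with a median change of 0.10 kb, to be read against the same shares and median over all genes. Of the longest in that list, values are given for ONECUT2 (6.20 ± 0.18 and 7.28 ± 0.77 kb) and ONECUT1 (4.96 ± 0.37 and 7.94 ± 0.10 kb). HES1, a Notch target, had 4.98 ± 0.31 and 5.61 ± 0.67 kb, with overlapping groups. The 2 with less, named after their values were seen, were KRT19 and DCDC2. KRT19 had 2.89 ± 0.05 kb (DMSO) and 1.46 ± 0.09 kb (I-BET151). DCDC2 had 950 and 664 bp under DMSO and 609 and 611 bp under I-BET151.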

How the data were processed

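H3K27ac ChIP-seq peak lists of 4 libraries (2 DMSO, 2 I-BET151) were used; the 4 input libraries had no peak list and were not used here by themselves. Groups and replicate numbers came from library titles. The authors' methods state that reads were aligned to hg38 with Bowtie2 2.2.5, that duplicates and mitochondrial reads were removed, and that peaks were called with MACS2 2.1.2 at its default settings. There was 1 list per library. The deposited lists give an interval and summit, a score (not used), the fold enrichment over local background as a ratio, and −log10 of the p-value and q-value, from the authors' run of MACS2. The fixed threshold leaves out weak acetylation, and duplicate removal caps height. The columns map to 1 library each, and 0 columns were left unmapped.

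Whole ChIP reads at each summit, the local input level and the depth were worked out from fold (pseudocount 1) and Poisson p, with the MACS2 genome size of 2.7e+09 bp; 99.8 to 100.0% of peaks were resolved, and the procedure was tested on simulated data. Depth was 7.76 to 9.84 M ChIP and 2.67 to 3.04 M input reads, and each list's shortest peak, 247 to 272 bp, was taken as the read extension. Peaks sharing at least 1 bp were merged into regions. A region with peaks of both I-BET151 and no DMSO libraries is gained, and the reverse lost. Genes, starts and features came from GENCODE release 44; as a check of the build, 82.1 to 85.9% of summits were 3 kb or less from a protein-coding start, against 17.3 to 18.0% once peaks were shifted by 1 Mb. Coordinates are 1-based.

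Groups were compared with an exact permutation test, two-sided, over the 6 ways to assign 4 libraries (smallest p 0.333), which measures spread between libraries that may be technical. The 6 genes are named in full, with every gene that shares peaks in their windows and, of each context list, the genes with the longest covered length (up to 4); 1 such gene and 1 summit sequence are not reported here. The members and lists were chosen with earlier results of these data known. Same-numbered replicates did not deviate together (r = 0.039 over heights). Python 3.11.15, numpy 2.4.6, pandas 2.3.3, scipy 1.17.1 and matplotlib 3.10.9 were used.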

Additional observations from a re-analysis of the deposited data

How the results depend on the processing

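Of 204 recomputed values over 25 results, 165 did not reverse and moved by less than the spread between replicates, 28 moved and 11 reversed. Among the 165, the changes of covered length at BHLHA15, RBPJL and CEL became 0 kb with only the peaks nearest to a gene's own start. The exact permutation test cannot go below 0.333 with 2 libraries a group. Windows of 100 kb reversed the mean change over the 6 genes to −0.166 kb and that of RBPJL to −0.943 kb, and gave 2 genes with more covered length, 2 with less and 1 lost region; windows of 10 kb gave 1 gene with less. Leaving out 1 replicate gave 1 to 3 genes with more covered length, 0 to 2 with less, and 0 to 1 gained regions, the 1 being CPA1 +0.59 kb once I-BET151 replicate 2 was left out. It moved the change of covered length at CPA1 between −0.0335 kb (without I-BET151 replicate 1) and 0.506 kb, at RBPJL between −0.081 kb (without I-BET151 replicate 1; −0.037 kb without DMSO replicate 1) and 0.087 kb, and at CEL between −0.0495 kb and 0.0485 kb (without I-BET151 replicate 1; 0.014 kb without DMSO replicate 1), and the log2 height of the RALGDS region in the CEL window between −0.0749 (without I-BET151 replicate 2) and 0.29. By deposited fold, the log2 changes reversed to −0.72 at CPA1 −0.67 kb, −0.21 at the SDC4 intron and 0.0822 at the second GTF3C5 region. The cause was not tested. The replicate block (mean of same-numbered differences, 0.056 kb over the 6 genes) changed no direction. For covered length it equals the difference of the group means by construction, so it could not, and these values are among the 165. Leaving out a library likewise could not move the 0 at PTF1A. Scaling reads to a common extension of 250 bp, chosen after seeing the data, moved the median of all regions to 0.046, with 39.9% higher and 28.0% lower, and left 6 of 6 regions of NR5A2 and CPA1 higher and 1 higher and 5 lower of the neighbours' 8. Every peak in the 6 windows had a −log10 q of at least 5 (the lowest was 5.23), so that limit could change nothing there. Equal numbers of top-ranked peaks changed no direction of covered length. These 2 settings and the other merging rules left the gained and lost counts at 0. Depth limits the unmarked genes: the weakest peak of each list had 14 to 17 summit reads, and more are needed where the local background is higher.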
